A study of Mus musculus with 18 samples.

Results

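The transcripts described here encode the machinery that starts transcription: subunits of RNA polymerases I, II and III, the general transcription factors, the TATA-binding protein Tbp with its associated factors (TAFs), and the Mediator complex. Members were chosen by gene symbol alone, as array probes that carry a single symbol beginning with Polr1 to Polr3, Gtf2, Gtf3, Taf or Med followed by a digit, or equal to Tbp, with the probe of highest mean kept for each gene. This gave 100 of 30176 measured genes: 26 polymerase entries, of which 1 is the pseudogene Polr2d-ps2, 22 Gtf2 and Gtf3 factors, 23 entries of Tbp and the TAFs, and 29 Mediator subunits. The values are log2 signals of single blastomeres, that is, of one cell of a 2-cell mouse embryo, on the Affymetrix Mouse Transcriptome Array 1.0. Each of 9 embryos (numbered 1 to 5 and 7 to 10) gave 1 sister pair, a and b, which makes 18 arrays with embryo as the only grouping in the labels. All embryos were parthenogenetic: oocytes of B6C3F1 females (C57BL/6 crossed with C3H) were activated without sperm for 6 h in 10 mM SrCl2 with Latrunculin, an actin inhibitor that keeps both chromosome sets in the egg. They were then cultured in KSOM(aa), a standard embryo medium, and were bisected and lysed at 1 day after activation (20 h of culture). Such embryos hold no paternal genome, no fertilized or untreated group was profiled beside them here, and an array on 1 blastomere cannot be repeated, so the sister is the nearest thing to a replicate.

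In mouse cells RNA polymerase I transcribes the ribosomal RNA genes, polymerase II the protein-coding genes, and polymerase III the tRNA and 5S rRNA genes. Polymerase II is placed at promoters by TFIID (Tbp and TAFs), TFIIA, TFIIB, TFIIE, TFIIF and TFIIH, and receives signals from enhancers through Mediator, whereas TFIIIC recruits polymerase III. The oocyte loads the egg with maternal mRNA, and the mouse genome is switched on mainly at the 2-cell stage, so at this time maternal and newly made transcripts of these genes can be present together, and an array does not separate them.

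A gene counted as measured above background where its 18 arrays averaged more than 5.80 log2 units, the 95th percentile of 1443 chemosensory receptor and Y-linked genes that these cells should not transcribe. Of the 100 members, 93 passed, and 83 of them lay above that value on every one of the 18 arrays. The 7 that did not pass were Gtf2a1l and Taf7l, germ cell paralogs of a TFIIA and a TFIID subunit, Taf7l2, Taf6l, Gtf2ird2, Taf1c of the polymerase I factor SL1, and the pseudogene. Polr1a, the largest subunit of polymerase I, passed with values between 5.45 and 6.64 (median 5.96) and was above the threshold on 10 arrays only, as was Polr2l. The subunit genes Polr2k, Polr2m, Taf1d, Taf9 and Med20 had probes that share several symbols, and Gtf2h2 had no listed probe, so none of these was analysed. The array values varied most in blastomeres 5b and 1a, whose relative log expression had an interquartile range of 0.835 and 0.815, against 0.55 to 0.79 on the other arrays. Of the 8 2-cell embryo markers (Zscan4c, Zscan4d, Tmem92 and others) all were above background, as were 15 of 16 oocyte markers (the exception was Mos), whereas of 10 cumulus and granulosa cell markers Has2 and Amhr2 alone passed, and Fshr, Foxl2 and Amh did not.

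Which members differed between embryos by more than sisters differ was asked with an F test in limma, with embryo as a factor and Benjamini-Hochberg adjustment over all 12885 genes above background. Med10, Polr1c, Polr2j, Gtf3c6, Med28, Taf9b and Polr2g passed an adjusted p of 0.05, which is 7 of 93 members (7.53%), beside 5.81% of all genes. Before adjustment 24 members (25.8%) had a p under 0.05, beside 22.6% of all genes, so the members were called about as often as genes at large. By family the calls were 3 of 25 polymerase subunits, 1 of 20 Gtf2 and Gtf3 factors, 1 of 19 genes of Tbp and the TAFs, and 2 of 29 Mediator subunits. None of the 13 TFIID subunits passed in limma, also not at an unadjusted p under 0.05. The members just outside the threshold were Med29 (adjusted p = 0.0526) and Polr2i (0.0584), and Polr2i was named after its values were seen. These p-values measure the spread between these blastomeres, and the labels give no processing order, so likeness of sisters handled side by side cannot be told apart from likeness of origin. Where embryos of a member are said below to lie apart, the split was read from its ranked values. How many of all genes split so was not counted.

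Among polymerase subunits, Polr1c (probe TC1700002170.mm.1) encodes the subunit known as AC40, which polymerases I and III share. Its log2 signals in sisters a and b were 8.11 and 8.77 in embryo 8 and 8.81 and 9.04 in embryo 5, then 10.34 and 9.22 in embryo 10, 9.94 and 10.92 in embryo 3, 10.81 and 10.19 in embryo 2, 10.74 and 10.81 in embryo 9, 11.44 and 10.94 in embryo 4, 11.34 and 11.60 in embryo 1, and 11.26 and 11.70 in embryo 7. Both blastomeres of embryos 5 and 8 lay below all 14 others. The highest and lowest embryo means were 3.04 log2 units apart, an 8.22-fold difference, while sisters differed by 0.54 ± 0.35 (SD, n = 9 pairs; adjusted p = 0.0110, limma F test). Without pair 8 the adjusted p of Polr1c was 0.0511.

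Polr2j (probe TC0500001598.mm.1), the RPB11 subunit that pairs with Polr2c in the polymerase II core, was among the most even members between sisters. It read 12.53 and 12.51 in the sisters of embryo 8, 12.86 and 13.20 in embryo 4, 12.94 and 13.38 in embryo 1, 13.24 and 13.30 in embryo 9, 13.29 and 13.30 in embryo 10, 14.04 and 14.02 in embryo 2, 14.41 and 13.94 in embryo 7, 14.21 and 14.23 in embryo 3, and 14.03 and 14.94 in embryo 5. The embryos thus fell on either side of a gap between 13.38 and 13.94 that no blastomere occupied, with 8, 4, 1, 9 and 10 below it and 2, 7, 3 and 5 above it. The embryo means spanned 1.97 log2 units (3.90-fold), against a sister difference of 0.25 ± 0.31 (SD, n = 9 pairs; adjusted p = 0.0122, and 0.0518 without pair 8).

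Polr2g (probe TC1900001070.mm.1) encodes RPB7, which forms the polymerase II stalk with the product of Polr2d. Its signals were 14.01 and 13.90 in embryo 8 and 13.98 and 13.84 in embryo 5, and 11.52 and 11.65 in embryo 7 and 11.76 and 11.80 in embryo 9. Embryos 5 and 8, the low ones for Polr1c, were therefore the high ones for Polr2g. Each blastomere of embryos 5 and 8 exceeded the 14 others, at the closest with 13.84 in 5b over 13.80 in 1a. The remaining blastomeres read between 10.60 (4a) and 13.80 (1a), and the sisters of pair 4 (10.60 and 12.26) and pair 1 (13.80 and 12.21) were over 2-fold apart. The adjusted p was 0.0451. Polr2d itself gave no call (adjusted p = 0.310), with values from 8.59 to 12.43 (median 10.72).

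Polr2i, the RPB9 subunit, was highest in embryo 5 (7.74 and 8.04) and lowest in embryos 7 (4.82 and 5.90) and 9 (6.11 and 4.79), and several of these values lie under the background threshold. The catalytic subunits were not called. Polr2a, the largest subunit of polymerase II, ranged from 7.17 in 5b to 10.56 in 9b (median 9.82, adjusted p = 0.755), and Polr2b from 7.86 in 2a to 11.27 in 4b (median 9.81, adjusted p = 0.310). For polymerase III, Polr3a ranged from 6.74 to 10.89 (median 8.90, adjusted p = 0.357) and Polr3b had an adjusted p of 0.239. The lowest values of Polr2a and Polr3a were both on array 5b, one of the 2 arrays of widest spread.

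Polr3g and Polr3gl encode alternative versions of the same polymerase III subunit, and in mouse Polr3g is known as the form of pluripotent cells. Polr3gl (probe TC0300002522.mm.1) was at 8.06 and 8.00 in embryo 10, while the other 16 blastomeres lay between 6.61 and 7.40. Polr3g (probe TC1300002360.mm.1) was highest in embryo 9 (9.64 and 9.23), and in embryo 10 it read 8.39 and 7.31. Neither passed over all genes (adjusted p = 0.197 for Polr3gl and 0.240 for Polr3g), although the mean of embryo 10 was the one value among the named members that stood apart from the other 8 embryos.

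**Figure D1:**
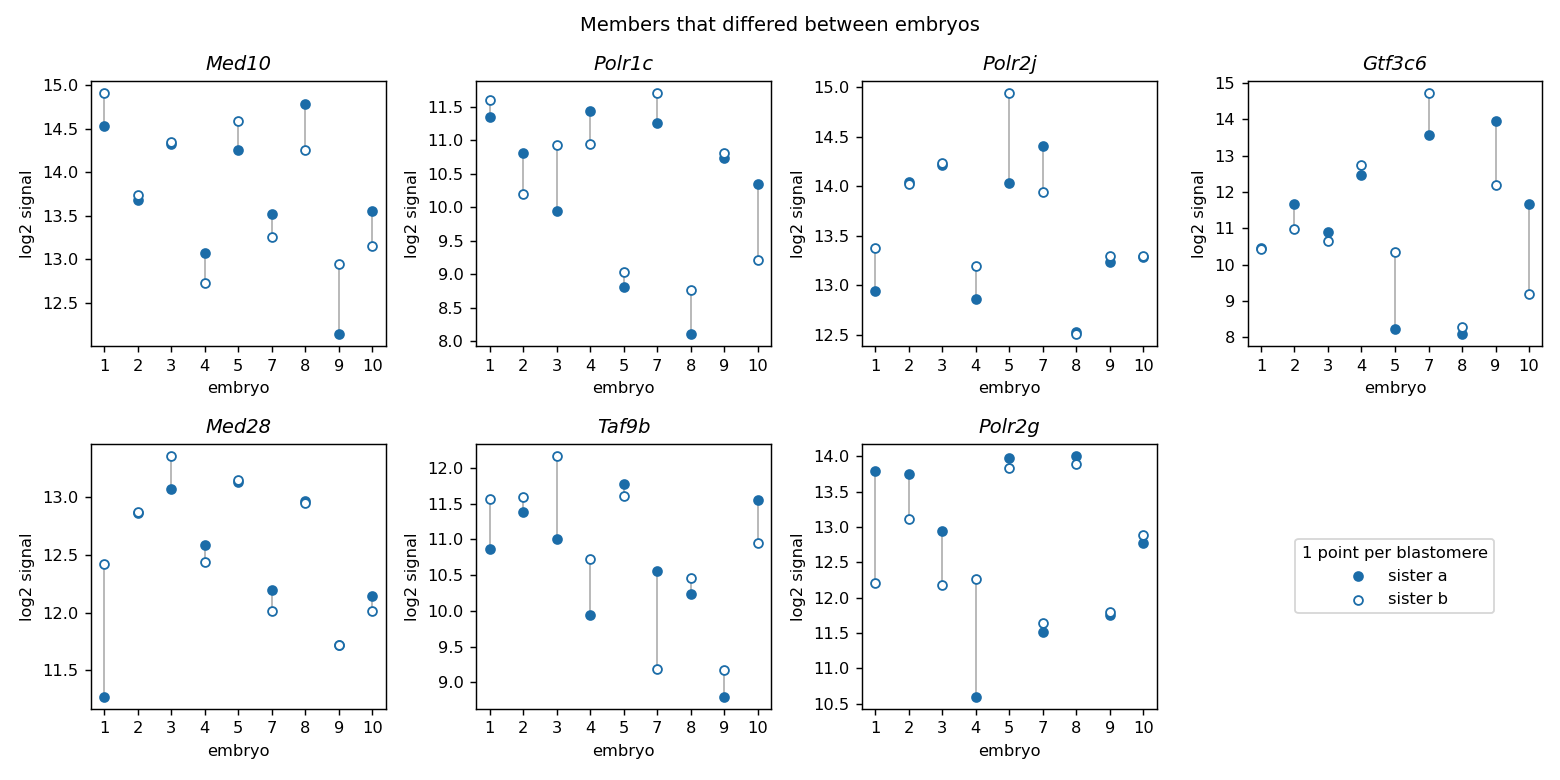
The 7 members that differed between embryos, with the log2 signal on the y axis of each panel (axes do not start at 0) and the embryo on the x axis. Filled points are sister a and open points sister b, joined by a grey line. In Polr1c both points of embryos 5 and 8 lie below all others, in Polr2g both lie above all others, and the points of Polr2j leave a gap between 13.38 and 13.94.

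TFIIIC binds the promoters of tRNA genes and brings polymerase III to them, and its smallest subunit is encoded by Gtf3c6 (probe TC1000002042.mm.1). Gtf3c6 was the member with the widest range. Its log2 signals were 8.09 and 8.28 in embryo 8, 8.23 and 10.34 in embryo 5, 11.67 and 9.18 in embryo 10, 10.46 and 10.42 in embryo 1, 10.90 and 10.65 in embryo 3, 11.68 and 10.99 in embryo 2, 12.47 and 12.74 in embryo 4, 13.96 and 12.19 in embryo 9, and 13.56 and 14.72 in embryo 7. The means of embryos 7 and 8 differed by 5.96 log2 units (62.0-fold), with no overlap between embryos 4, 7 and 9 and the other 6. Sisters differed by 1.00 ± 0.92 (SD, n = 9 pairs), and pairs 10, 5, 9 and 7 were over 2-fold apart (adjusted p = 0.0131). The call was lost without pair 8 (adjusted p = 0.0549), without pair 7 (0.0529) and in a plain analysis of variance (0.0646).

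The other 5 TFIIIC subunits were not called, with adjusted p between 0.104 (Gtf3c4) and 0.885 (Gtf3c2). In embryo 7 all of the 6 except Gtf3c2 were above their own mean over embryos, and in embryo 5 all except Gtf3c2 were below it. Gtf3c1, the large DNA-binding subunit, read 9.58 and 8.69 in embryo 7 against 8.91 and 6.29 in embryo 5, and Gtf3c4 read 8.56 and 9.10 in embryo 7 against 6.98 and 6.10 in embryo 5. The mean deviation of the complex was 0.96 in embryo 7, 0.45 in embryo 9, 0.42 in embryo 4, -0.55 in embryo 8 and -1.02 in embryo 5. Without Gtf3c6 these became 0.56, 0.15, 0.21, -0.07 and -0.85. Array 5b, one of the 2 arrays of widest spread, held the lowest value of Gtf3c1, Gtf3c3 and Gtf3c4. With embryo 5 taken from 5a alone, the complex deviated by -0.81 there, and by -0.41 without Gtf3c6, while Gtf3c1 was then above its mean (0.35).

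**Figure D2:**
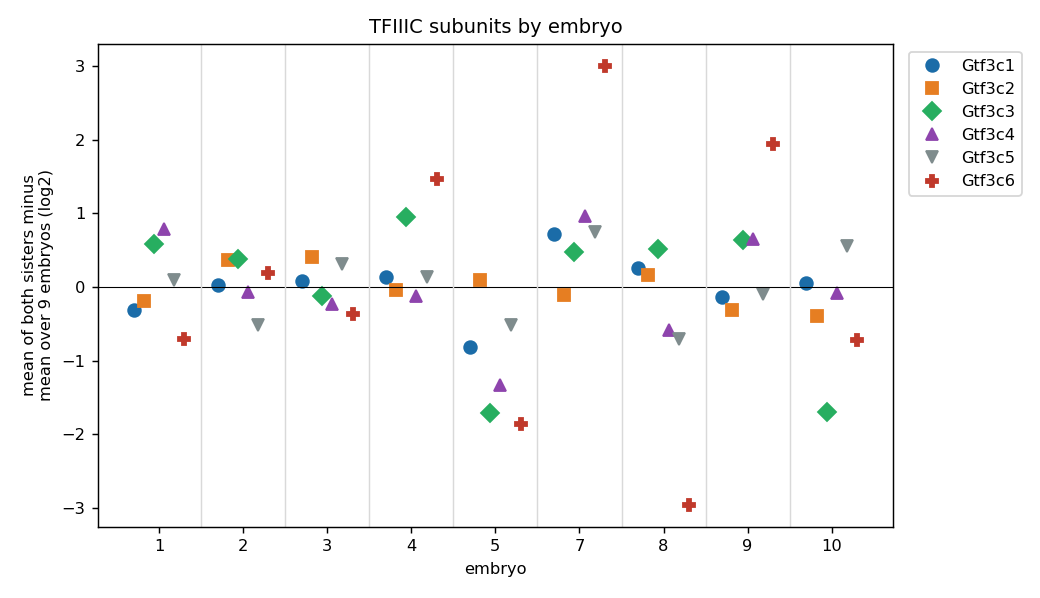
The 6 TFIIIC subunits by embryo. The y axis is the mean of both sisters minus the mean of that gene over the 9 embryos (log2), and each symbol is 1 gene. Gtf3c6 spans the widest range, lowest in embryo 8 and highest in embryo 7, and 5 of the 6 subunits lie below 0 in embryo 5.

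Among Tbp and the TAFs the single call was Taf9b (probe TC0X00002826.mm.1), an X-linked paralog of Taf9 that can take its place in TFIID. It read 11.77 and 11.61 in embryo 5, 11.00 and 12.17 in embryo 3, 11.38 and 11.60 in embryo 2, 11.55 and 10.95 in embryo 10 and 10.86 and 11.56 in embryo 1, and it was lowest in embryo 9 (8.80 and 9.17), followed by embryo 7 (10.56 and 9.19), embryo 4 (9.94 and 10.73) and embryo 8 (10.23 and 10.46). Every blastomere of embryos 1, 2, 3, 5 and 10 was thus above every blastomere of embryos 4, 7, 8 and 9, at the closest with 10.86 in 1a over 10.73 in 4b. The extreme embryo means were 2.71 log2 units apart (6.52-fold, adjusted p = 0.0427), and sisters differed by 0.62 ± 0.43. Taf9 itself was not analysed, and whether its transcript contributes to this probe was not tested.

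The subunits of TFIID itself gave no call. Tbp (probe TC1700000183.mm.1) lay between 9.35 in 9b and 11.20 in 5a with a median of 9.94, and its embryo means differed by 1.29 log2 units at an adjusted p of 0.274. Its relatives Tbpl1 (adjusted p = 0.672) and Tbpl2 were outside the symbol rule. Tbpl2, which replaces Tbp in growing mouse oocytes, was below background with a mean of 5.15. Taf4b, the gonadal paralog of Taf4, was lowest in 2a (10.38), 5b (10.66) and 5a (11.64), while the other 15 blastomeres lay between 12.15 and 13.53 (adjusted p = 0.243, against 0.727 for Taf4). Taf7 had an adjusted p of 0.230, and its germ cell paralog Taf7l stayed between 4.88 and 5.29 in embryo means, under the threshold on all arrays. Of the other general factors, Gtf2b, which bridges Tbp and polymerase II, came closest to a call. It read 13.06 and 13.83 in embryo 5 and 13.33 and 12.10 in embryo 8, and 10.43 and 11.04 in embryo 1 and 10.54 and 10.98 in embryo 9 (adjusted p = 0.0767). Gtf2a1 of TFIIA was among the steadiest, from 14.42 to 15.48 (median 15.07, adjusted p = 0.738), and Gtf2h1 of TFIIH had an adjusted p of 0.303.

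Mediator joins enhancer-bound factors to polymerase II through head and middle modules, a tail and a detachable kinase module. Its called subunits were Med10 of the middle module and Med28, which is counted here with the tail. Med10 (probe TC1300000857.mm.1) had the smallest p of all members. It read 14.53 and 14.91 in embryo 1, 14.79 and 14.25 in embryo 8, 14.26 and 14.59 in embryo 5, 14.32 and 14.35 in embryo 3, 13.68 and 13.74 in embryo 2, 13.52 and 13.26 in embryo 7, 13.56 and 13.15 in embryo 10, 13.07 and 12.73 in embryo 4 and 12.14 and 12.95 in embryo 9. The 8 blastomeres of embryos 1, 3, 5 and 8 were all above the 10 others, and no pair of sisters was over 2-fold apart (0.35 ± 0.24, n = 9 pairs, against an embryo range of 2.18 log2 units or 4.52-fold, adjusted p = 0.00705). This gene has a second probe that lay under the background threshold, and with the mean of both probes the adjusted p was 0.196.

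Med28 (probe TC0500000489.mm.1) was highest in embryo 3 (13.07 and 13.36) and embryo 5 (13.13 and 13.15), followed by embryo 8 (12.97 and 12.95) and embryo 2 (12.86 and 12.87). It was lowest in embryo 9 (11.72 in both sisters), with 12.20 and 12.01 in embryo 7, 12.14 and 12.01 in embryo 10 and 12.59 and 12.44 in embryo 4. In pair 1 the sisters read 11.27, the lowest value of all, and 12.42, the single pair over 2-fold apart. Both called subunits were thus high in embryos 3, 5 and 8 and low in embryo 9, but differed in embryo 1. The adjusted p of Med28 was 0.0420.

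Med29, a tail subunit, followed another order, with 12.76 and 13.15 in embryo 7, 12.19 and 12.23 in embryo 4, and 9.62 and 9.91 in embryo 10. The remaining named subunits gave no call: Med14, the scaffold that runs through the complex, ranged from 12.52 to 13.91 (adjusted p = 0.532), Med1, which contacts nuclear receptors, from 11.52 to 12.99 (0.608), and Med23 of the tail from 8.45 to 10.06 (0.724). In the kinase module Med13 ranged from 13.09 to 14.60 (adjusted p = 0.150) and Med12 from 5.60 to 7.24 (0.887). As a whole, Mediator transcripts stood highest in embryo 3, where 23 of 29 were above their own mean (mean deviation 0.31, all 8 middle subunits among them), and lowest in embryos 10 and 9, where 7 and 8 of 29 were above it (-0.29 and -0.23). Over all genes the share above their own mean was 52.0% in embryo 3, 44.4% in embryo 10 and 42.4% in embryo 9.

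The calls of Med28, Taf9b and Polr2g lie close to the threshold. When single blastomeres were left out in turn, Med28 stayed under 0.05 only without 1a or 1b (adjusted p up to 0.0935 otherwise), Taf9b only without 1a, 1b, 3a, 7a or 7b (up to 0.129 otherwise), and Polr2g only without 1a, 1b, 4a or 4b (up to 0.0932 otherwise).

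RefSeq promoter windows (assembly GRCm38.p6), from 250 bases before to 50 after an annotated start, were matched by symbol to 87 of the 100 members and 6 of the 7 called ones. The sequence CCGGAAG, the core bound by ETS family factors, was found on either strand in the windows of 32 of 87 members (36.8%), in 20.7% of the 7564 genes above background with a window, and in 9.93% of all 27025 genes with one. The E box CACGTG was found in 21.8% of members, 11.5% of genes above background and 8.09% of all genes, and the shares for the core bound by NRF1 (GCGCA, any base, then GCGC) were 17.2%, 12.2% and 5.19%. The GC box GGGCGG was about as frequent in members (65.5%) as in genes above background (63.7%), and CCAAT was found in 34.5% and 44% of them. TATAAA was found in 14.9% of members and 9.35% of genes above background. A match is a run of letters and not a bound site. None of these runs of letters contains another. Of the 6 called members with a window, Med10, Polr1c, Polr2j and Gtf3c6 had CCGGAAG, and Med28 and Taf9b had none. No test was run on these 4 of 6, and how often the motif lies this near the start in other genes was not counted. The 4 windows are printed below, 5′ to 3′ on the strand of the gene, with CCGGAAG or its complement CTTCCGG in capitals. Med10 and Gtf3c6 have 2 windows each, and the one with the motif nearest to the start is given. Med10 lies on chromosome 13 (chr13:69809632-69809931, plus strand), Polr1c on chromosome 17 (chr17:46247996-46248295, minus strand), Polr2j on chromosome 5 (chr5:136116441-136116740, plus strand) and Gtf3c6 on chromosome 10 (chr10:40257663-40257962, minus strand).
Med10: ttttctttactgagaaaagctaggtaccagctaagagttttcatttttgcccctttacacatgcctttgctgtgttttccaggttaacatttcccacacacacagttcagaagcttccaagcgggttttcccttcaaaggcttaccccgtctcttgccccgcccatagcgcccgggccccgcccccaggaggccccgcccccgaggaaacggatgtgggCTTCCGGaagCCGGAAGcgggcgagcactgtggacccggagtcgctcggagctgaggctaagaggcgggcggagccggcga
Polr1c: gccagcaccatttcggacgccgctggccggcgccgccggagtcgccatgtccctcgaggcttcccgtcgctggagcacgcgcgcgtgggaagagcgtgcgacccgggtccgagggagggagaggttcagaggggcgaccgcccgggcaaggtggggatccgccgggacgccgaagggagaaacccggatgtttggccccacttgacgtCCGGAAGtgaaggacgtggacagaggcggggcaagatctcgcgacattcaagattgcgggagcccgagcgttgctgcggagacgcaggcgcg
Polr2j: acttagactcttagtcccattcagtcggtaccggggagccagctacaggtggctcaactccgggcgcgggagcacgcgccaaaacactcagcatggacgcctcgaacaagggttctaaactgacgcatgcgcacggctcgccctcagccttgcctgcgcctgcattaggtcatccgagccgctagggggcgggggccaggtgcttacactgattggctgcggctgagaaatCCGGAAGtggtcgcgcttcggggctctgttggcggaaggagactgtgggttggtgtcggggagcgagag
Gtf3c6: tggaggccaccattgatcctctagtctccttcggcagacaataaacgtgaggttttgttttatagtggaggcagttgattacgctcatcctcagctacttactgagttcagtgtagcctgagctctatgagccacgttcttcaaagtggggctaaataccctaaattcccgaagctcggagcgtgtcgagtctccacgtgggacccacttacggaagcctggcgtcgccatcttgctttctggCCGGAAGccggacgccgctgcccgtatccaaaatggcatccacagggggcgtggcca

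Med10 holds the core at bases 220 and 230 of its window, in opposite directions, and Polr1c, Polr2j and Gtf3c6 hold it once, at bases 209, 232 and 244. Across embryos, Polr1c and Gtf3c6 were both lowest in embryos 8, 5 and 10, in that order, and highest in embryo 7, whereas Polr2j was lowest in embryo 8 and highest in embryo 5, and Med10 was lowest in embryo 9 and highest in embryo 1. The part of the motif in these orders was not tested.

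Across embryos the complexes did not move as one. The mean deviation of all 93 members ran from -0.30 in embryo 10 to 0.21 in embryo 7, against -0.09 to 0.08 for all genes. In embryo 10, 26 of 93 members (28.0%) were above their own mean, and this embryo was the lowest of the 9 for 19 members (20.4%, against 13.6% of all genes). Embryo 7 was the highest for 20 members (21.5%, against 15% of all genes). The 4 subunits shared by all polymerases (Polr2e, Polr2f, Polr2h and Polr2l) deviated by 0.59 in embryo 4 and -0.72 in embryo 10. Polr2h alone read 7.18 as the mean of embryo 10 against 10.62 in embryo 1 (adjusted p = 0.120). The polymerase I group here holds Polr1a, Polr1b and Polr1e. These 3 were all above their means in embryos 1, 4 and 7 and all below in embryos 2 and 8 (mean deviation 0.84, 0.50, 0.60, -0.76 and -0.71). Of the polymerase I subunits listed under older symbols, Znrd1 had the same signs in these embryos. Twistnb (mean 11.25) had the same sign in embryo 7 only. It was below its mean in embryos 1 and 4 (11.075 and 10.965) and above it in embryos 2 and 8 (11.645 and 11.66). TFIID and TFIIH stayed within -0.24 to 0.24 in every embryo.

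The oocyte markers were measured beside these. Their mean deviation was 0.65 in embryo 5, 0.50 in embryo 8 and 0.35 in embryo 2, and -0.55 in embryo 1, -0.47 in embryo 7 and -0.40 in embryo 9, and 3 of the 15 above background were called in the F test. Embryos 5 and 8, high in these markers, were the high ones for Polr2g and the low ones for Polr1c and Gtf3c6, and embryos 7 and 9, low in them, were low for Polr2g and high for Gtf3c6. Embryo 1, the lowest in these markers, had middling Gtf3c6 (10.46 and 10.42) and the highest Med10. Polr2g did not follow the markers in every embryo. Outside embryos 5 and 8 its highest value was in 1a (13.80). Its lowest value was in 4a (10.60), in an embryo where the markers deviated by -0.12. Gtf3c6 and Polr1c did not follow the markers in every embryo either. In embryo 2, high in the markers, Gtf3c6 averaged 11.335, above its mean of 11.14 over all blastomeres, and Polr1c was not low. Embryo 10, the next lowest after 8 and 5 for both genes, had a marker deviation of 0.00. The 2-cell markers, all 8 of which were called, were highest in embryo 4 (0.88) and embryo 8 (0.43) and lowest in embryo 3 (-0.44). In embryo 8 they split, with Zscan4c, Zscan4d, Zscan4f, Usp17la and Tmem92 above their means and Tdpoz2, Obox6 and Dppa4 below. In embryo 3 the split was reversed, with Tdpoz2, Obox6 and Dppa4 above their means and the other markers below. The part of either marker group in the differences of the members was not tested.

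**Figure D3:**
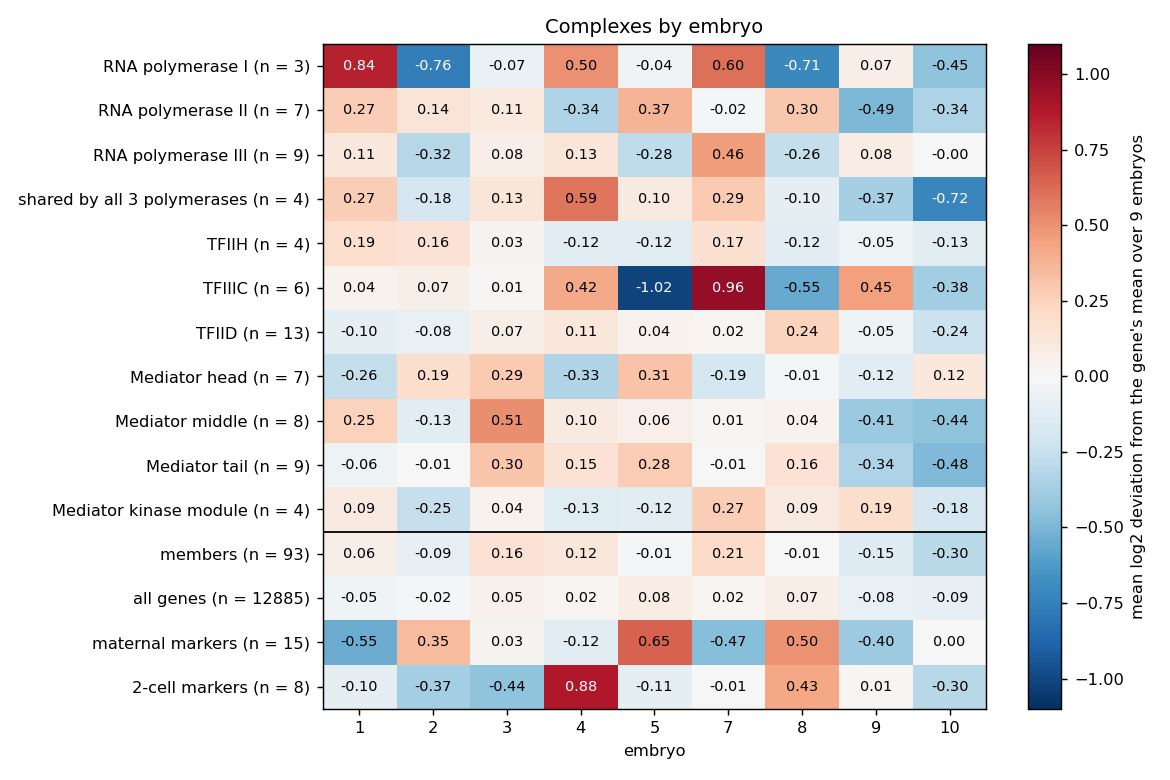
Mean log2 deviation of each complex (rows, with the number of members above background) in each embryo (columns) from the gene's own mean over the 9 embryos. Red is above and blue below that mean. TFIIIC runs from -1.02 in embryo 5 to 0.96 in embryo 7 while TFIID stays within -0.24 to 0.24, and the last 4 rows give all 93 members, all genes and both marker groups.

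The related factors that work with this machinery but carry other symbols were read from the same fit. Of 44 that were measured, 42 were above background and none passed in limma, while 9 of 42 (21.4%) had an unadjusted p under 0.05, against 5.81% and 22.6% of all genes. The closest were Rtf1 of the PAF1 elongation complex (adjusted p = 0.0558), Ubtf, which opens ribosomal DNA for polymerase I (0.0581), and the elongation factor Tcea1 (0.0590). Ubtf averaged 9.73 in embryo 7 and 7.45 in embryo 5. The Mediator kinases Cdk8 and Cdk19 had adjusted p of 0.144 and 0.414, and the TFIIH kinase Cdk7 of 0.336. Of the 3 polymerase I subunit genes listed under older symbols, Znrd1, Twistnb and Cd3eap, the first was called (adjusted p = 0.0120, highest in embryo 4 and lowest in embryo 2), the second was not (0.565) and the third was below background.

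How unequal sisters were was measured as the ratio of the higher over the lower signal, averaged geometrically over the 9 pairs, and was set beside the same ratio over the 144 combinations of non-sisters. The median member was 1.51-fold apart in sisters and 1.61-fold apart in non-sisters, and the median of all genes was 1.45 in sisters and 1.56 in non-sisters. Of the 93 members 68 (73.1%) were closer in sisters, beside 68.9% of all genes. The polymerase II subunits had a median ratio of 1.60 in sisters and 2.15 in non-sisters. In TFIID the medians were 1.51 in sisters and 1.51 in non-sisters, and in TFIIH 1.48 and 1.48. No test was run on these medians, since the members were not drawn at random. With 1 array for each blastomere, array noise cannot be told apart from unequal sisters, here or in the ratios below.

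The members differed widely in how even they were. The most even was Med28 at a ratio of 1.16, followed by Polr2j at 1.19, and the least even were Taf5, a TFIID scaffold subunit, at 2.63 and Med17, a head subunit, at 2.56. Taf5 (probe TC1900000717.mm.1) was over 2-fold apart in 6 of 9 pairs. Its sisters read 8.56 and 11.62 in pair 8, 11.27 and 9.07 in pair 5, 10.28 and 11.94 in pair 9, 9.71 and 11.28 in pair 7, 11.13 and 9.71 in pair 10 and 10.42 and 9.02 in pair 3, whereas pair 1 (10.36 and 10.21) and pair 4 (10.64 and 10.83) were nearly even. The higher sister was a in some pairs and b in others, so the letter did not fix it. Its sister difference was 1.40 ± 0.92 log2 units (SD, n = 9 pairs), and its ratio was 2.13 in non-sisters.

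Med17 (probe TC0900001784.mm.1) was likewise over 2-fold apart in 6 pairs, most in pair 5 (9.35 and 6.63), pair 2 (8.95 and 7.03) and pair 1 (5.94 and 7.86). Taf1, the largest TFIID subunit, had a ratio of 2.41 in sisters and 1.95 in non-sisters, with 7.68 and 9.91 in pair 4 and 7.42 and 9.54 in pair 1. Gtf3c3, a structural subunit of TFIIIC, had 2.55 in sisters and 2.72 in non-sisters, and Med18 had 1.95 and 1.83. Together with Gtf3c3 and Med18 these were the 5 members over 2-fold apart in 5 or more pairs (5.38%, against 8.92% of all genes), and 23 members (24.7%, against 34.3% of all genes) were over 2-fold apart in none.

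Within a complex the range of sister ratios was wide. It ran from 1.29 (Polr1a) to 1.68 (Polr1b) in polymerase I, from 1.19 (Polr2j) to 2.29 (Polr2d) in polymerase II and from 1.22 (Polr3gl) to 2.16 (Polr3a) in polymerase III. Among subunits common to all 3 enzymes it ran from 1.35 (Polr2f) to 1.90 (Polr2h). The ends were 1.20 (Gtf2h4) and 1.60 (Gtf2h1) in TFIIH, 1.34 (Gtf3c5) and 2.55 (Gtf3c3) in TFIIIC, and 1.27 (Taf6) and 2.63 (Taf5) in TFIID. In Mediator they were 1.32 (Med8) and 2.56 (Med17) in the head, 1.21 (Med9) and 1.84 (Med7) in the middle module, 1.16 (Med28) and 1.58 (Med29) in the tail, and 1.28 (Med13) and 1.71 (Med13l) in the kinase module. Polr1a, Gtf3c5, Gtf2h4, Med8 and Med9 were also dim (means of 5.99, 6.35, 6.60, 6.35 and 6.63 log2 units), and the part of dimness in their small ratios was not tested.

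**Figure D4:**
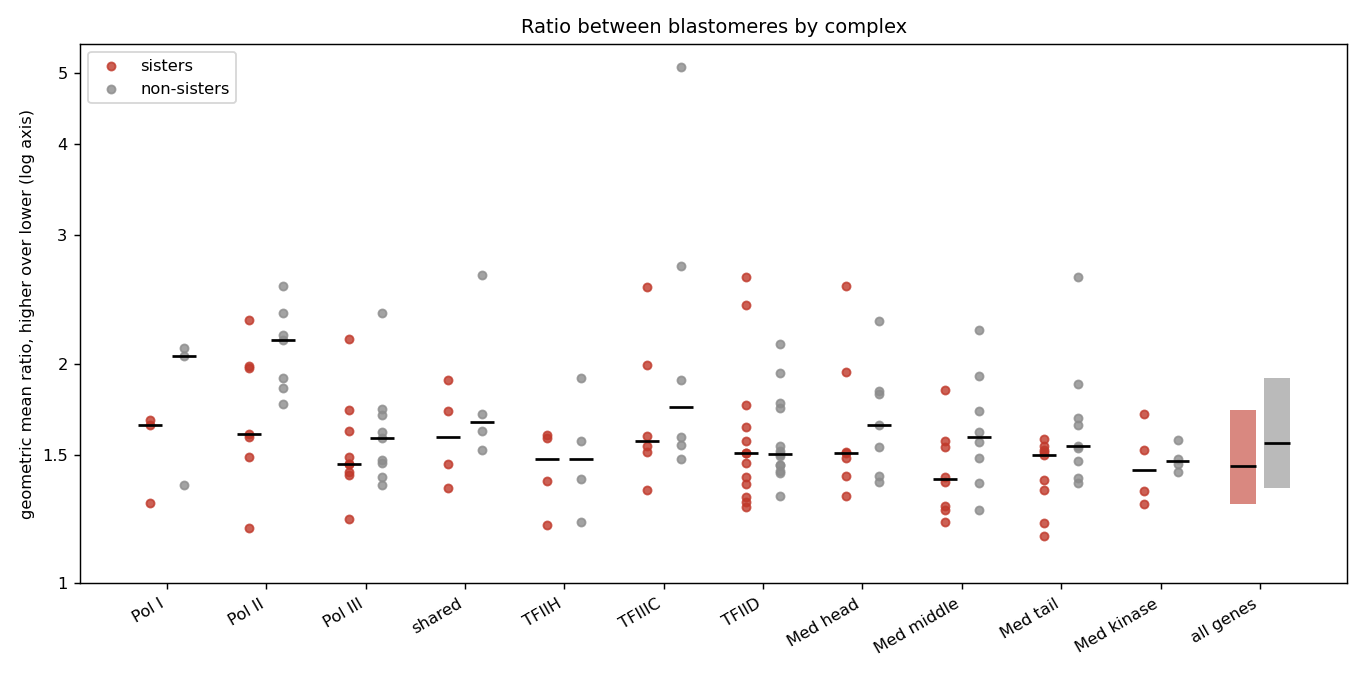
Geometric mean ratio between blastomeres (log axis) for the members of 11 complexes or modules with 3 or more members above background, with sisters in red on the left and non-sisters in grey on the right. Horizontal bars are medians, and the boxes for all genes span the 25th to 75th percentile. The medians of polymerase II are 1.60 in sisters and 2.15 in non-sisters, and those of TFIID are 1.51 in both.

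Whether any gene was more unequal between sisters than genes of like intensity was asked with the residual variance of the limma fit over its trended prior (one-sided F test). No member passed after adjustment, and neither did any other gene (0% of 12885). Before adjustment a p under 0.05 was reached by 0 of 93 members and by 4.18% of all genes. This count sets no limit on inequality between sisters.

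By pair, the members over 2-fold apart were 27 of 93 in pair 5 (29.0%), 25 in pair 1 (26.9%), 20 in pairs 4 and 10 (21.5%), 19 in pair 7 (20.4%), 15 in pair 9 (16.1%), 14 in pair 2 (15.1%), 10 in pair 3 (10.8%) and 9 in pair 8 (9.68%). The mean over pairs was 19.0% ± 6.67 for members and 18.9% ± 3.65 for all genes (SD, n = 9 pairs). Pairs 5 and 1 hold the arrays of widest spread, 5b and 1a, and they led the pairs for all genes too (23.4% and 25.7%).

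**Figure D5:**
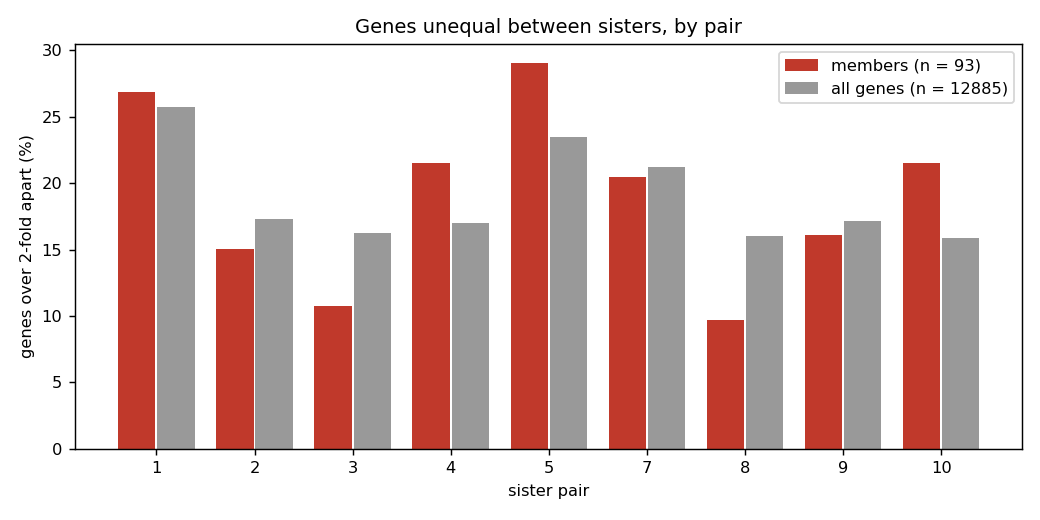
Percent of genes over 2-fold apart between sisters in each pair, for the 93 members (red, left) and all 12885 genes above background (grey, right). Members run from 9.68% in pair 8 to 29.0% in pair 5.

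Over all members, sister a was the higher one for between 38 of 93 (40.9%, pair 1) and 55 of 93 (59.1%, pair 7), and over all genes for between 46.8% and 54.2%. In pair 1, 6 of the 7 polymerase II subunits were over 2-fold apart, but in both directions: Polr2a (8.25 and 10.23), Polr2b (9.90 and 11.22) and Polr2c were higher in b, and Polr2d, Polr2g (13.80 and 12.21) and Polr2i (7.04 and 5.96) were higher in a. No polymerase II subunit was over 2-fold apart in pairs 3 and 8. In pair 5, which holds array 5b, 8 of the 13 TFIID subunits were higher in a and 5 in b, and 5 were over 2-fold apart. Taf5 (11.27 and 9.07), Taf2, Taf4 (9.68 and 7.77) and Taf1 (9.37 and 7.73) were among those higher in a, and Taf8 was higher in b.

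Among 11 complexes and modules in 9 pairs, all subunits lay on one side in 8 of 99 cases, each with 3 or 4 subunits. The kinase module had all 4 higher in a in pairs 5 and 7, TFIIH had all 4 higher in b in pairs 2, 3 and 10, the 4 subunits shared by all polymerases were higher in a in pair 9, and the 3 of polymerase I were higher in b in pair 3 and in a in pair 8. In pair 7 Med12 read 7.07 and 5.74 in sisters a and b, and Med13l and Med12l were also over 2-fold apart, while Med13 read 14.60 and 14.42. In pair 10 the kinase module leaned the other way, with 1 of 4 higher in a and Med12 at 5.60 and 7.24. In pair 1, 8 of 9 tail subunits were higher in b (mean difference a minus b -0.70), where the 15 oocyte markers had a mean difference of -0.77 and all genes of -0.14. The part of these markers in the lean of the tail was not tested. Such runs were described and not tested, and no count for subunits that vary independently was set beside the 8 cases.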

How the data were processed

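Single blastomeres of 9 parthenogenetic 2-cell embryos were profiled on 18 arrays, 1 for each blastomere. The authors deposited log2 signals per probe set from SST-RMA, a robust multiarray average that corrects background and equalizes arrays, run in the Affymetrix consoles after preparing targets with the WT Pico kit. The build used to place probes is not given in the sources. The arrays were equalized (medians 4.86 to 5.26), so they cannot show whether total RNA differed between blastomeres. The number of arrays limits the precision.

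The table held 65956 probe sets, of which 30638 had 1 symbol in the platform annotation, 2176 several and 33142 none. Probes with 1 symbol were used, with the highest-mean probe kept for the 354 genes that had more. Med10, Polr3a and the pseudogene Polr2d-ps2 were the members with several probes, and the second probe of Med10 and Polr3a lay below background. The threshold of 5.80 was passed by 12885 genes. Embryo differences were tested by a moderated F test over embryos (limma 3.58.1, R 4.3.3, variance prior following intensity, threshold 0.05 after Benjamini-Hochberg adjustment over all genes above background), after the analysis of variance that the methods name, and the script was tested on simulated data. Excess sister spread was the residual variance over the trended prior. Lists were described by counts and medians. Named were all called members, the most and least even member of each complex with at least 3 members, a fixed set of catalytic subunits and paralogs, and a few others said to be chosen after their values were seen (Polr2i, Med18, Polr2c, Polr2e, Polr2l, Gtf3c4, Gtf3c2, Taf2, Taf8 and Med12l, and the related factors outside the symbol rule). The members and lists were chosen with earlier results of these data known. Alternatives changed the threshold, the scaling, the probe rule, the trend, the test and the arrays used. Promoter windows came from RefSeq. Python 3.11.15, numpy 2.4.6, pandas 2.3.3 and matplotlib 3.10.9 were used.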

Additional observations from a re-analysis of the deposited data

Results flagged for a closer look

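Of 44 sets of 9 values that were checked, 1 held a value far from the others. The sets were the embryo means of each named member above background, and the share of members over 2-fold apart in each pair. Members named after their values were seen were not checked. The mean of Polr3gl in embryo 10 was 8.03, against 7.15 in the next highest embryo, a gap of 0.660 of the whole range where 0.493 is the limit for 9 values. Both sisters of that embryo were high (8.06 and 8.00). Chance flags about 1 in 20 such sets, and this gene did not pass the F test over all genes (adjusted p = 0.197).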

How the results depend on the processing

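The count of 7 members that differed between embryos was 4 with no background threshold (4%, beside 1.34% of all genes). It was 3 with a plain analysis of variance (3.23%, beside 2.74% of all genes). The calls over all genes were 403 and 353, against 749. The count of members fell within 5 to 9 under the other 8 settings that used all or 16 arrays. With the sister letter as a replicate block it was 5 (5.38%, beside 4.44% of all genes), of which 4 were among the 7. Med28 (adjusted p = 0.0612), Taf9b (0.0619) and Polr2g (0.065) were not called and Med29 was. The letters mark no shared source. With a stricter threshold the count was 9 of 73 (12.3%), beside 11.8% of all genes. Leaving out 1 blastomere or 1 pair gave between 1 and 8 members. The lowest count was without pair 8, where Med10 alone was called (1.08%, beside 3.69% of all genes). The highest was without pair 1 (8.6%, beside 6.93%) or without 1b (8.6%, beside 6.5%). The count was 4 without pairs 2, 7, 9 or 10 and without any 1 of blastomeres 2a, 2b, 3b, 8a, 8b, 9b, 10a or 10b. In these settings 4.3% of members were called, beside 3.28% to 5.24% of all genes. Over 37 alternatives Med10, Polr1c and Polr2j each kept their call in 36, with adjusted p from 0.0039 to 0.196, 0.00665 to 0.0511 and 0.00507 to 0.0518. Gtf3c6 kept it in 34 (0.00696 to 0.0646), Taf9b in 14 (0.0242 to 0.21), Polr2g in 11 (0.0195 to 0.123) and Med28 in 9 (0.00655 to 0.104). Med29, Polr2i, Gtf2b and Polr1b were called under some alternatives. Symbols as in the platform table changed nothing. Median sister difference stayed between 0.561 and 0.623 log2 units in 34 alternatives, and excess spread at 0 members in 35. Descriptions were repeated with alternatives chosen after seeing the data, and 16.4% to 19.7% of members were over 2-fold apart. TFIIIC was compared between embryos 7 and 5, its highest and lowest, with Gtf3c6 included. Embryo 7 exceeded embryo 5 by 1.93 to 1.99 log2 units under other scalings and probe rules, by 1.75 without 5b and by 2.23 without 5a. Without Gtf3c6 the complex deviated by 0.56 in embryo 7 and -0.85 in embryo 5, or -0.41 there from 5a alone. Signal close to background limits Polr1a, Polr2i, Polr2l, Med12 and other dim members.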
